A study of Rattus norvegicus with 10 samples.

Results

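The late-numbered rat miRNAs are those whose number is 3000 or more. They were taken from the names of the array's probes as every name that starts with rno-miR- and a number of 3000 or more, either arm. The rule gave 82 names on 82 probes, of 679 rat miRNA probes and 3542 probes in all. Of these, 1 probe stands for 2 names, miR-299* and miR-3563-3p. The study asked how chronic morphine changes miRNA levels in the medial prefrontal cortex (mPFC). Morphine-treated rats (n = 5) received intraperitoneal morphine 2 times a day over 5 days, in doses that climbed through 10, 20 and 30 mg/kg to 40 mg/kg on the last 2 days. Saline-treated rats (n = 5) received saline by the same schedule. All were wild-type Sprague Dawley rats of 2 months, and the mPFC RNA of each was hybridized to 1 miRCURY LNA array, read in a single color, on which modified nucleotides (locked nucleic acid) let short probes hold short RNAs tightly.

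miRNAs are short RNAs that guide Argonaute proteins to messenger RNAs, mostly through the seed, bases 2 to 8 of the miRNA, and so lower the output of those messengers. Each is cut from a hairpin whose arms are called 5p and 3p, and 1 arm is often kept while the other, marked * in the array's older names, is degraded. Numbers are given in order of discovery, so that high numbers mark miRNAs found late, mainly by deep sequencing, and most have no established role. Some were annotated on the strand opposite a well-known miRNA, where the same stretch of DNA, read the other way, could give another hairpin.

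Mature sequences were found in RefSeq (build GRCr8) for 74 of the 82, of which 66 matched by name and 8 by gene symbol and arm, such as miR-3597-5p, which RefSeq lists as miR-9b-5p. Of the 74, 42 lay opposite another rat miRNA, either with hairpins that overlap on opposite strands or with a mature sequence that is its reverse complement over 15 bases or more, and 25 were such a reverse complement over their whole length. The other 32 had no such partner. What part the likeness of these sequences plays in the results was not tested. Shown here are the 6 members that differed between the groups and, for 5 of them, the miRNA on the other strand. They are read 5′ to 3′ with the seed in capitals, to show how alike and how opposed they are.
miR-3597-5p: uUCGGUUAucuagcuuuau
miR-9*: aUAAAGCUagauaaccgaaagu
miR-9: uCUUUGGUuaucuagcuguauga
miR-3596c: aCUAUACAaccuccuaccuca
let-7e: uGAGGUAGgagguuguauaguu
miR-3596a: aACUAUACaaccuacuaccuca
let-7a: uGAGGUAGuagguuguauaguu
miR-3556a: cGAUUUCAgauggugcua
miR-29a: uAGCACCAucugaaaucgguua
miR-3544: aACUCCUGcaugacgccguuccc
miR-337*: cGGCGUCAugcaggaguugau
miR-3584-5p: gGGAGGAGuccaggaggc
miR-9 is listed because miR-3597-5p shares with it a run of 12 bases in the same sense, whereas it is the reverse complement of miR-9* over all of its 19 bases. miR-3596c, miR-3596a and miR-3556a are the reverse complement of let-7e, let-7a and miR-29a over 21, 22 and 18 bases, their whole lengths, and miR-3544 of miR-337* over 18 of its 23. miR-3596a and miR-3596c match each other at 20 of 21 aligned bases. miR-3584-5p lies opposite no rat miRNA in the table and is the member richest in G and C (72.2%). Of these 6, miR-3597-5p has 3 loci in the table, 1 of them at chr1:142849454-142849472 on the minus strand. At least 1 of its 3 hairpins lies within the span of Mir9-2hg, and which one was not read from the table. miR-3596c lies at chr1:67350243-67350263, miR-3596a at chr8:50805219-50805240, miR-3544 at chr6:134321165-134321187 and miR-3584-5p at chr1:256727582-256727599, all on the minus strand, and miR-3556a at chr4:60617972-60617989 on the plus strand. The span of Itprip, which codes for a protein that binds the inositol trisphosphate receptor, holds miR-3584. Whether that place is exonic or intronic was not read from the table. Seeds were shared with other rat miRNAs by 3 members: miR-3065-5p with miR-7a-1-3p, miR-3573-5p with miR-423-5p, and miR-3596d with the 3p strands of let-7a-1, let-7b, let-7c-2, let-7f-1 and miR-98.

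All values below are intensities after subtraction of the local background, averaged over the 4 spots of a probe and scaled between arrays, so that a value below 0 means that the spots were dimmer than their surroundings. A value of 30 is the level at which the study took miRNAs into its scaling, and is used here as the detection level. The scaled intensity of a probe measures that miRNA between arrays, and the intensities of different probes do not rank the miRNAs by amount. The local background was 63 to 141 on the morphine arrays (median 125) and 84 to 348 on the saline arrays (median 188), and the 7 negative-control probes read -67 to 9.5 (median -42.25) on the morphine arrays and -186 to -27.25 (median -99) on the saline arrays, before scaling, as medians per array. The labelled tissue was checked with marker miRNAs: the 6 neuron-enriched ones were at 30 on every morphine array, where they summed to 34252 to 113943, whereas 4 of the 6, miR-9, miR-128, miR-132 and miR-218a, were below 30 on every saline array, and the sum there was 587 to 1496. The 2 oligodendrocyte markers and miR-126 of endothelium were below 30 on every saline array. On the morphine arrays the oligodendrocyte markers summed to 120 to 1654, and miR-126 was 48.6 to 4408. The 5 mesenchyme and vessel wall markers summed to 1435 to 5095 on the morphine arrays and 9527 to 21919 on the saline arrays. The 4 blood markers summed to 1310.1 to 7594 on the morphine arrays and 28.3 to 221 on the saline arrays, and the 3 skeletal muscle markers to 27.6 to 191 on the morphine arrays and 10.7 to 1565 on the saline arrays. Of the muscle markers, miR-1 and miR-133a were below 30 on every saline array, where the sum was mostly miR-206 (10.7 to 1565). The liver marker miR-122 was below 30 on every array. The neuron, oligodendrocyte, endothelium, mesenchyme and blood sums did not overlap between the groups, so that tissue content and treatment are confounded in every comparison below. In bulk tissue, fewer cells of a type and less RNA per cell cannot be told apart, and the part of these shifts in the results below was not tested.

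Fewer of the late-numbered miRNAs than of the other rat miRNAs were detected. Before scaling, 5 of the 82 members reached 30 on all 10 arrays, 16 on 5 to 9 arrays, 23 on 1 to 4 arrays and 38 (46.3%) on none, against 172 of 597 other rat probes (28.8%) on none. Members were thus at 30 on any array for 44 of 82, against 425 of 597 of the others. After scaling, 18 to 38 members reached 30 on a morphine array (median 20) and 12 to 27 on a saline array (median 17). The other rat probes counted 227 to 361 (median 321) on morphine arrays and 170 to 251 (median 205) on saline arrays. The counts of the groups overlapped, and 1 array, morphine replicate 4, held 38 members where the other morphine arrays held 18 to 20. Of the 23 members at 30 on 1 to 4 arrays, 21 were at 30 on that array, against 108 of 145 such other rat probes. There and nowhere else 8 members (9.76%) reached 30, against 35 of the 597 others (5.86%). That array had the lowest local background of all (63) and a negative-control median of 9.5. Members at 30 on at least 1 morphine array and on no saline array numbered 16 (19.5%, against 152 of 597 other rat probes, or 25.5%), and 0 members were at 30 on a saline array without being so on a morphine array, against 9 of the others (1.51%). Counted from the median of each array's negative controls in place of the local background, 30 to 40 members (median 36) stood 30 or more above it on morphine arrays and 35 to 39 (median 36) on saline arrays, so that the medians of the groups were equal on that scale. Morphine replicate 4 held 37 members on that scale, within the range of the other morphine arrays.

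**Figure D1:**
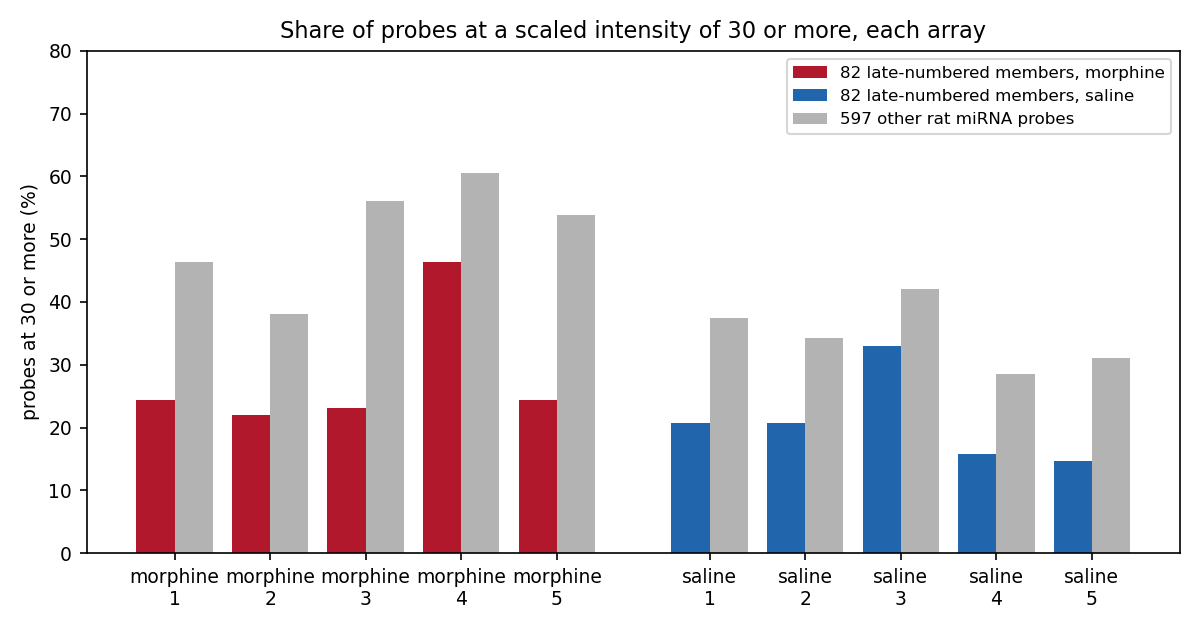
Share of probes at a scaled intensity of 30 or more on each array, for the 82 late-numbered members (colored bars) and the 597 other rat miRNA probes (grey bars), morphine arrays on the left. The members' share is below that of the other probes on all 10 arrays, and morphine replicate 4 has the highest share of members (46.3%, or 38 of 82).

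The test covered the 21 members that reached 30 on at least 5 arrays, among 301 rat probes in all, with limma and Benjamini-Hochberg adjustment over the 301, on log2 values with a floor of 30. The other 61 members were too dim for it. Of the 21, 6 differed between morphine- and saline-treated rats at an adjusted p under 0.05 (28.6%, against 44.2% of all tested probes): 2 were higher in morphine-treated rats (9.52%, against 32.6%) and 4 lower (19.0%, against 11.6%). Both members called higher had entered the test through the morphine arrays alone, with no saline array at 30, so that a difference was built into their entry, and 37 of the 40 tested probes of that kind were called higher. Of the 19 members at 30 in both groups before scaling, 0 were called higher and 4 lower, against 61 and 33 of 259 probes. One of these 4, miR-3556a, was at 30 on 1 morphine array before scaling and under 30 on all 5 after it. A difference was thus nearly built into its entry too. 8 members had an unadjusted p under 0.05. The largest of these, that of miR-3584-3p, ranked 153 among the 301 probes, so that at least 153 probes had such a p. The groups did not overlap for 4 members (19.0%, against 29.6% of all tested probes), 2 higher in morphine (the background share was 21.3%) and 2 lower (8.31%). The median log2 fold change was -0.30 over the members and 0.45 over all 301 probes, and 12 of the 21 members, against 121 of the 301 probes, were below 0. The median over all probes moved to -0.28 with quantile normalization, where 65 probes were higher and 54 lower in place of 98 and 35, and there 1 member was higher and 6 lower. Cyclic loess gave 55 higher and 57 lower (median -0.18), normexp background correction 45 and 50 (-0.21), and values with no background subtraction 70 and 45 (-0.045). Read above the median of each array's negative controls, 41 members could be tested and 11 of them passed, 3 higher and 8 lower, against 41.0% of the 422 rat probes tested in that way (92 higher and 81 lower, with a median log2 fold change of -0.26 over the 422). Of the 11, miR-3597-5p, miR-3561-5p and miR-3558-3p stood 30 above the controls in a single group alone. A difference was thus built into their entry as well.

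**Figure D2:**
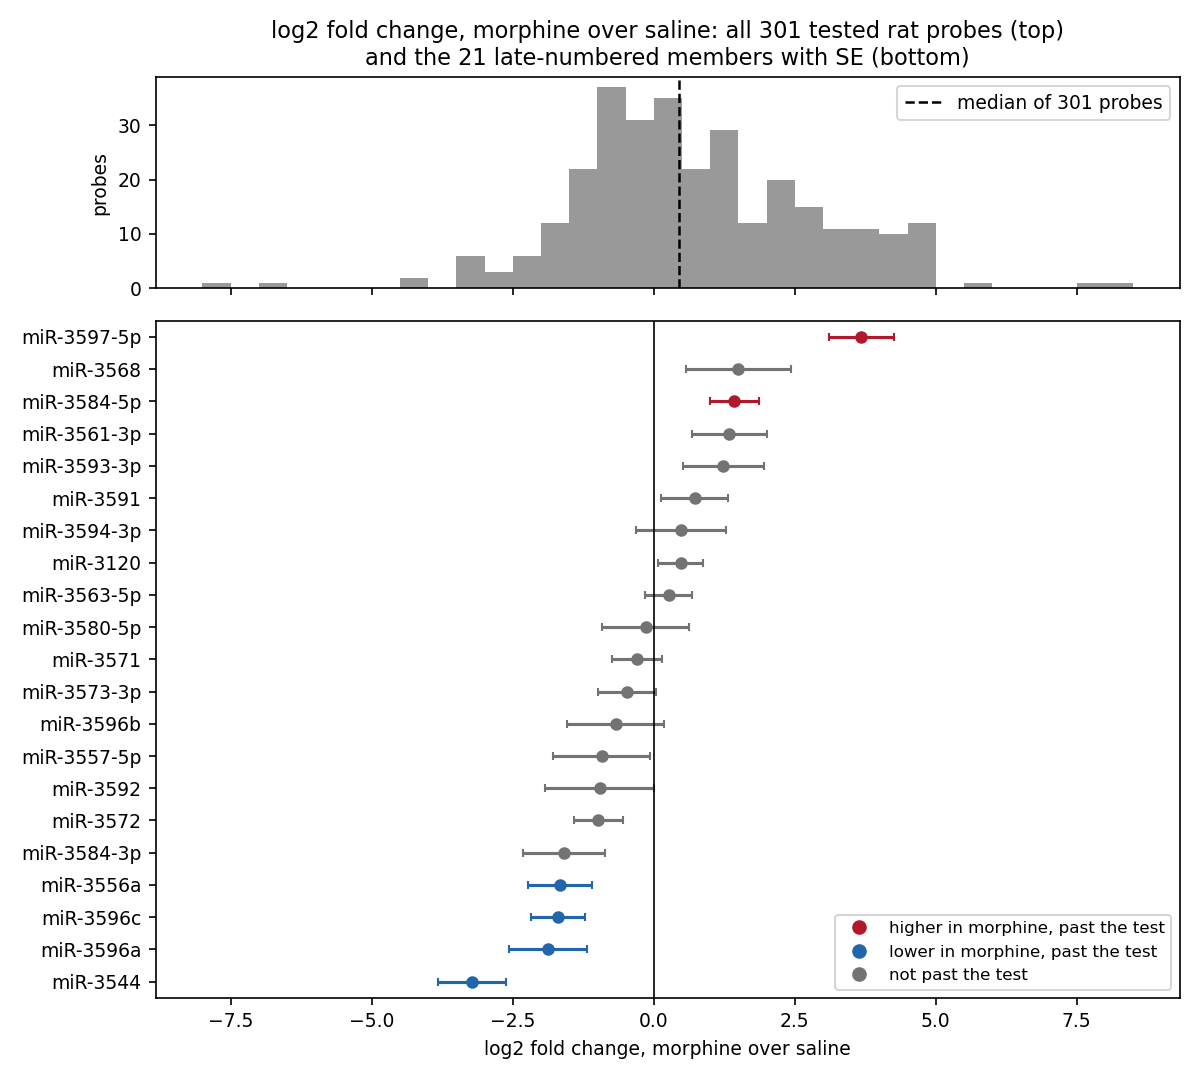
Log2 fold change of morphine over saline for all 301 tested rat miRNA probes (top, histogram with the median as a dashed line) and for the 21 tested late-numbered members (bottom, point and SE from limma). Members past the test are red where higher and blue where lower in morphine, and they run between -3.23 (miR-3544) and 3.68 (miR-3597-5p).

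miR-3597-5p, which lies opposite the miR-9 genes, was the member with the highest fold change. Its scaled intensity was 535, 468, 604, 81.3 and 685 on morphine arrays 1 to 5 and -45.2, -119, -33.1, -231 and -274 on saline arrays 1 to 5. It was thus at 30 on every morphine array and on no saline array, and morphine replicate 4 was the dimmest of the morphine arrays. The level was at least 11.6-fold higher in morphine-treated rats, where the bound sets the mean of the morphine arrays against the lowest signal that could be read on each saline array (fitted log2 fold change 3.68 ± 0.57 SE, n = 5 each, limma adjusted p = 0.000219). The fitted value depends on the floor, and was 5.27 with a floor of 10 and 2.68 with a floor of 60. It was 2.70 with quantile normalization, 2.05 with cyclic loess, 2.73 with no background subtraction and 1.41 with normexp, all smaller changes than the bound, which thus depends on the scaling and the background subtraction. Since the probe entered the test through its 5 morphine arrays alone, its p adds nothing to the values above. miR-9, the neuronal miRNA with which it shares 12 bases, was 6697, 6467, 21054, 5169 and 22186 on the morphine arrays and below 30 on all 5 saline arrays. miR-9*, its reverse complement, was 6124, 6539.6, 23609, 9898 and 28419 on the morphine arrays and 2346, 2195, 2302, 2380.0 and 4838 on the saline arrays (log2 fold change 2.19 ± 0.54, limma adjusted p = 0.00549). Both miR-9 strands were thus higher in morphine too. miR-9, miR-9* and miR-3597-5p were each brightest on morphine replicates 5 and 3. On morphine replicate 4, where miR-3597-5p and miR-9 were at their lowest, miR-9* was above its values on replicates 1 and 2. Whether the miR-3597-5p probe also binds miR-9 was not tested. The other arm, miR-3597-3p, was below 30 on all 10 arrays.

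miR-3584-5p and miR-3584-3p, the arms of a hairpin within Itprip, had fold changes of opposite sign. miR-3584-5p was 88.3, 38.8, 77.2, 100.3 and 131 on the morphine arrays and -22.1, -82.9, -4.69, -137 and -157 on the saline arrays. No saline array reached 30, and the level was at least 2.45-fold higher in morphine-treated rats (fitted log2 fold change 1.43 ± 0.43 SE, n = 5 each, limma adjusted p = 0.0165). It too entered the test through its 5 morphine arrays alone, and its p adds nothing to the values. The call was lost with quantile normalization (0.39), cyclic loess (0.99) and a floor of 60 (0.56), and with normexp background correction the fold change was -0.088. With no background subtraction it was 0.87. The values with quantile normalization, cyclic loess, normexp and no background subtraction were below the bound (log2 1.29), which thus depends on the scaling and the background subtraction. The adjusted p ran between 0.000163 and 0.819 over the alternatives. miR-3584-3p was 349.8, 85.2, 8.58, 288 and 16.4 on the morphine arrays and 225, 160.4, 291, 331 and 551 on the saline arrays. The groups overlapped, and its log2 fold change of -1.59 ± 0.74 missed the threshold (limma adjusted p = 0.0976), though it passed with quantile normalization (-2.18), cyclic loess (-3.28) and the negative-control baseline (-1.84), and without morphine replicate 1 (-2.06) or 4 (-1.99). The difference between the arms was not tested.

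The 4 members opposite let-7, miR-3596a to miR-3596d, include 2 of the 4 that fell. let-7 miRNAs are abundant in mature tissue, brain included, and are known for restraining growth and stem cell programs. miR-3596c was 1516, 1319, 824, 1656 and 919.7 on the morphine arrays and 2705, 3035, 2838, 4138 and 9337 on the saline arrays. Every morphine array lay below every saline array, and saline replicate 5 was the brightest (log2 fold change -1.70 ± 0.47 SE, n = 5 each, limma adjusted p = 0.0114). Without saline replicate 5 the fold change was -1.38 and still passed. let-7e, on the other strand, was 6284, 5940.4, 8230.4, 5528 and 10943 on the morphine arrays and 2376, 3992, 2605, 3561 and 3526 on the saline arrays. It was thus higher in morphine-treated rats (log2 fold change 1.18 ± 0.40, limma adjusted p = 0.0307), opposite in sign to miR-3596c.

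miR-3596a was 40.5, 40.2, 20.2, 51.5 and 23.6 on the morphine arrays and 62.5, 369, 412, 178 and -325 on the saline arrays. The 4 brightest saline arrays lay above all morphine arrays, and saline replicate 5 was the dimmest array of all (log2 fold change -1.88 ± 0.69 SE, n = 5 each, limma adjusted p = 0.0397). The call held in 8 of 23 alternatives and in 3 of the 10 fits with an array removed. It was lost without morphine replicate 1, 2, 3 or 5 and without saline replicate 2, 3 or 4 (log2 fold changes of -1.91 to -1.49), and the sign was kept in every alternative run. let-7a was 2069, 1513, 1277, 62.4 and 2535 on the morphine arrays and 1014, 1752, 20.5, 2423 and 13.3 on the saline arrays, with a log2 fold change of 1.47 ± 1.40 that did not pass the test. miR-3596b, opposite let-7d, was 70.2 to 414 on the morphine arrays and -28.7 to 938 on the saline arrays and did not pass the test (-0.67 ± 0.86). let-7d rose in morphine-treated rats (2.90 ± 0.90, limma adjusted p = 0.0204). That call was lost with cyclic loess (1.95) and normexp (1.48). miR-3596d, opposite let-7f, was at 30 on morphine replicate 4 alone, at 322, and was not tested. Of the miRNAs that share its seed, let-7a-1*/let-7c-2* (1 probe) and miR-98* were below 30 on all arrays, let-7b* was at 30 on 1 morphine and 1 saline array, and let-7f-1* on 2 morphine arrays and no saline array, so that none could be tested.

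miR-3544 lies on chromosome 6 opposite miR-337 in the large imprinted miRNA cluster of that chromosome, whose miRNAs are made from the maternal copy and are abundant in brain. It was 142, 122, -19.9, 61.5 and 10.5 on the morphine arrays and 219, 502, 968, 819 and 786 on the saline arrays. Every morphine array lay below every saline array, and 2 of the morphine arrays were under 30 (log2 fold change -3.23 ± 0.60 SE, n = 5 each, limma adjusted p = 0.000979). Its spots were uneven: before scaling, the 4 spots of saline replicate 1 ran between -736 and 731 and those of saline replicate 5 between -500 and 1286, whereas those of saline replicate 3 ran between 815 and 1141. With the median of the spots in place of the mean, the fold change was -3.74. The partner miR-337* was at 30 on 1 morphine array and no saline array and was not tested, and neither was miR-337, which reached 138 on morphine replicate 5. In all, 8 members lie opposite that cluster. Of these, 4 were at 30 on no array and 2 were tested. The second, miR-3592 opposite miR-382*, was 21.5 to 793 on the morphine arrays and -153 to 488 on the saline arrays and did not pass the test (-0.96 ± 0.97). miR-382* was below 30 on all saline arrays and at least 2.34-fold higher in morphine (limma adjusted p = 0.033). It entered the test through its 5 morphine arrays alone, and its p adds nothing to the values. Its fitted log2 fold change of 1.37 was -0.26 with normexp, and the call was lost there and with quantile normalization, cyclic loess, the negative-control baseline and no background subtraction. In all of these the change was smaller than the bound, which thus depends on the scaling and the background subtraction.

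miR-3556a lies opposite miR-29a, a miRNA known in mouse to increase as neurons mature. Its scaled intensity was -25.1, -24.3, -26.4, 26.6 and -33.9 on the morphine arrays and 187, 47.2, 163, -56 and 178 on the saline arrays. All 5 morphine arrays and saline replicate 4 were thus under the floor of 30, and 4 saline arrays were above it (log2 fold change -1.66 ± 0.56 SE, n = 5 each, limma adjusted p = 0.0304). Before scaling, miR-3556a was at 30 on 4 saline arrays and 1 morphine array. It thus entered the test almost wholly through the saline arrays, and its p adds little to these values. The fitted value depends on the floor, and the call was lost with a floor of 60 (-0.93) and with no filter on dim probes. It held in 4 of the 10 fits with an array removed, and was lost without morphine replicate 1, 3 or 5 and without saline replicate 1, 3 or 5 (log2 fold changes of -1.66 to -1.42). miR-29a was 4676, 502, 7233, 882 and 8654 on the morphine arrays and 1264, 2601, 803, 1730.5 and 2639 on the saline arrays, and did not pass the test (0.69 ± 0.79). The 2 other members opposite the miR-29 family, miR-3556b opposite miR-29c and miR-3587 opposite miR-29b, were below 30 on all 10 arrays, although miR-29c (3.95 ± 0.74, limma adjusted p = 0.00098) and miR-29b (2.24 ± 0.71, limma adjusted p = 0.0224) were higher in morphine-treated rats. Signal from miR-29b and miR-29c was thus not accompanied by signal from the probes for the other strand.

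**Figure D3:**
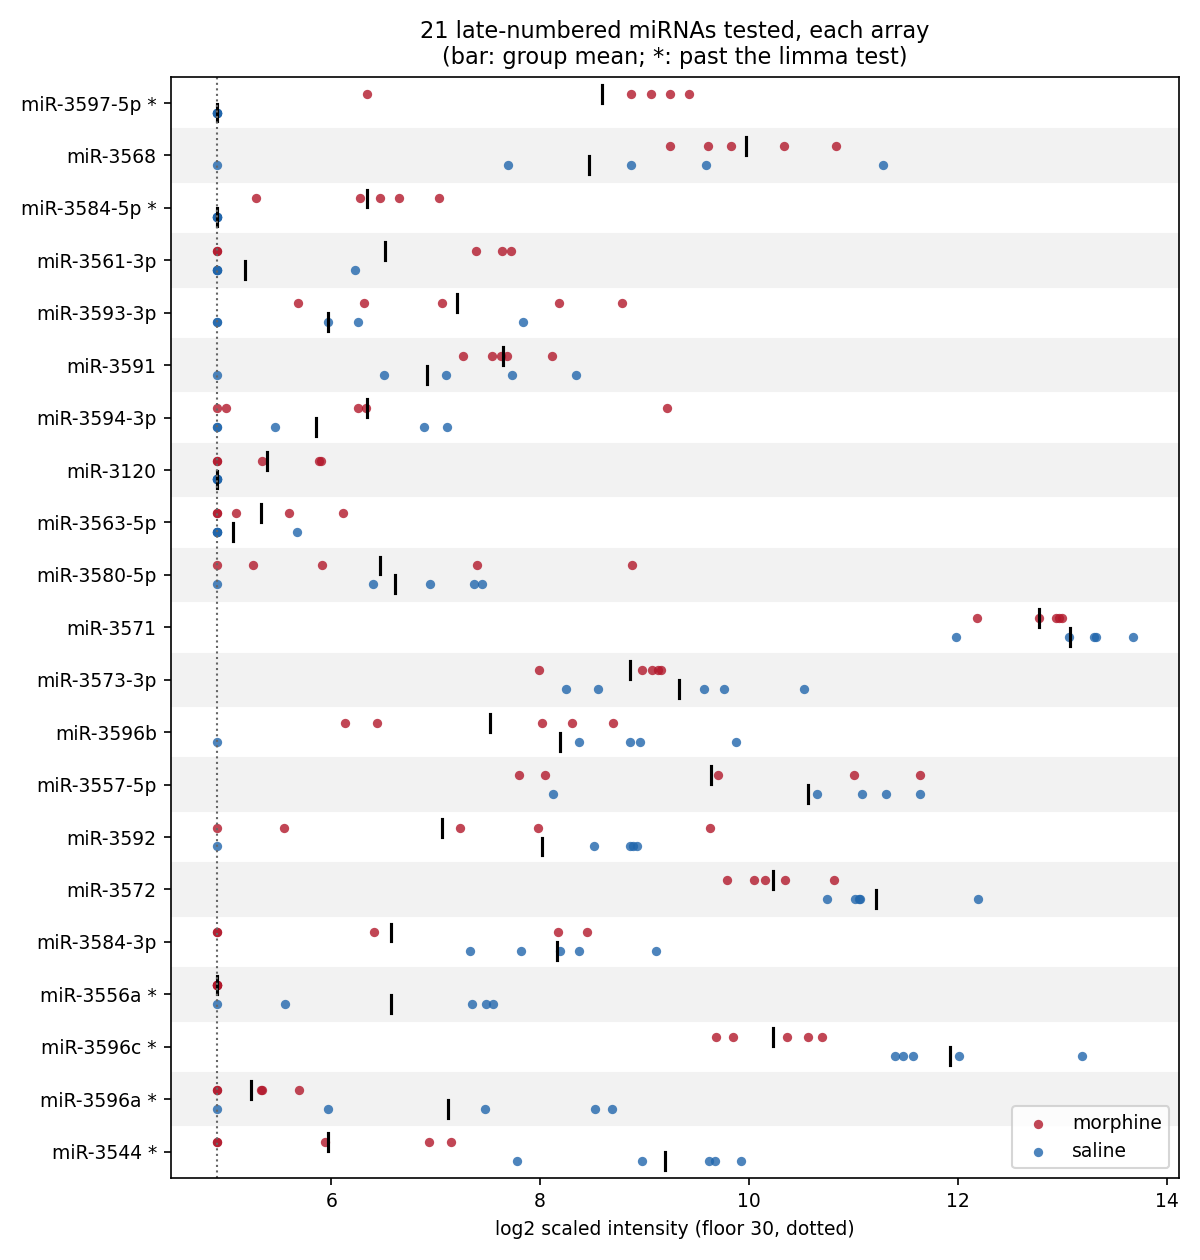
Log2 scaled intensity of the 21 tested late-numbered members on each array, with a floor of 30 (dotted line), morphine arrays above saline arrays in each row and the group means as black bars. Members past the limma test carry a star, and of these miR-3597-5p, miR-3584-5p, miR-3596c and miR-3544 have groups that do not overlap.

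The other tested members gave no call. The 3 with the smallest p among them were miR-3572, miR-3584-3p and miR-3561-3p. miR-3572, within the span of Cnot3, a subunit of the CCR4-NOT complex that removes poly(A) tails, was 1137, 1303, 1058, 1801 and 887 on the morphine arrays and 1714, 2124, 2143, 2075 and 4665 on the saline arrays. Saline replicate 5 stood apart at the top, the groups overlapped only between morphine replicate 4 and saline replicate 1, and the log2 fold change was -0.98 ± 0.43 SE (n = 5 each, limma adjusted p = 0.083). It passed with quantile normalization (-1.19), with the negative-control baseline (-1.30), with a floor of 60 and without morphine replicate 4 (-1.13), and the adjusted p ran between 0.0159 and 0.195 over the alternatives. miR-3561-3p was 199, 29.2, 167, 210.3 and 29 on the morphine arrays and 24.6, 4, 74.9, -110.5 and -172 on the saline arrays, with 3 bright morphine arrays and 1 saline array above the floor (1.34 ± 0.66 SE, n = 5 each, limma adjusted p = 0.123). Its other arm, miR-3561-5p, was 7.93, 25.5, 62.8, 142 and 61.9 on the morphine arrays and below 30 on all saline arrays, and reached the level on too few arrays to be tested.

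Of the probes with the highest mean intensity in either group, miR-3596c is given above, and miR-3571 and miR-3557-5p did not pass the test. miR-3571, opposite the muscle miRNA miR-1 and within the span of Mib1, a ubiquitin ligase of Notch signaling, was the brightest in each group. It was 8014, 8183, 4642, 7848 and 7005 on the morphine arrays and 8585, 10258, 4042, 13095 and 10115 on the saline arrays (log2 fold change -0.30 ± 0.44 SE, n = 5 each, limma adjusted p = 0.617). Its 4 spots on morphine replicate 2 ran between 2678 and 20824 before scaling. miR-1 itself was below 30 on all 10 arrays, and so was miR-122, the liver miRNA opposite miR-3591, whereas miR-3591 was 153 to 277 on the morphine arrays and 29.3 to 325 on the saline arrays. miR-3557-5p, opposite miR-378 in Ppargc1b, the gene of a coactivator of mitochondrial programs, was 831, 2055, 222, 3186 and 264 on the morphine arrays and 2164, 3191, 2543, 1609 and 279.6 on the saline arrays (log2 fold change -0.93 ± 0.86 SE, n = 5 each, limma adjusted p = 0.433). The spread within each group exceeded the difference between the groups. miR-378 was 1809, 3349.8, 854, 1906 and 671 on the morphine arrays and 2287, 3973, 2249, 3492 and 489.6 on the saline arrays and did not pass the test either (-0.48 ± 0.65). miR-3557-3p was at 30 on morphine replicate 2 alone. The sequences of these pairs are shown because the member gave signal on most arrays while the partner was below the detection level (miR-1, miR-122) or gave signal too (miR-378).
miR-3571: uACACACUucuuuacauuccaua
miR-1: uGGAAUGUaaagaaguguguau
miR-3591: aACACCAUugucacacucca
miR-122: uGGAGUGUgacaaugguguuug
miR-3557-5p: gCCUUCUGacuccaaguccagu
miR-378: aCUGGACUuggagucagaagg
miR-3571 is the reverse complement of miR-1 over 21 of its 23 bases, miR-3591 of miR-122 over all 20 and miR-3557-5p of miR-378 over 21 of its 22. They lie at chr18:2160340-2160362 on the plus strand, chr18:61028831-61028850 on the minus strand and chr18:57128924-57128945 on the plus strand. The other members tested, none past the test, were miR-3568 (1.50 ± 0.93), miR-3593-3p (1.23 ± 0.71), miR-3594-3p, miR-3120, miR-3563-5p, miR-3580-5p and miR-3573-3p, with log2 fold changes between -0.47 and 1.50.

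In 8 pairs both the member and the miRNA opposite it were among the tested probes, so that their changes could be set against each other within each array. The quantity was log2 member minus log2 partner, whose level compares different probes and has no meaning by itself, and whose difference between the groups was tested by an exact permutation test over the 10 arrays (two-sided, 252 splits, smallest p 0.00794), with Benjamini-Hochberg adjustment over the 8 pairs. For miR-3596c and let-7e the difference averaged -2.57 ± 0.82 on the morphine arrays and 0.31 ± 0.66 on the saline arrays (SD, n = 5 each). The groups did not overlap, and the shift of -2.88 passed (exact permutation p = 0.00794, adjusted p = 0.0317). It was -3.09 to -2.60 with 1 array left out, at the smallest p in all 10 fits. For miR-3120, which overlaps the hairpin of miR-214, the difference averaged -4.68 ± 1.56 on the morphine arrays and -7.68 ± 0.35 on the saline arrays (SD, n = 5 each), a shift of 2.99 with the floor of 30 (exact permutation p = 0.00794, adjusted p = 0.0317). Here the member stayed near the floor, at 1.5 to 59.6 on the morphine arrays and -207 to 29.9 on the saline arrays, and miR-214, a mesenchymal miRNA, was 1476, 1331, 439, 4701 and 350.4 on the morphine arrays and 5054, 7466, 4800.4, 8375 and 5728 on the saline arrays (log2 fold change -2.52 ± 0.65, limma adjusted p = 0.00761). With the member at the floor on every saline array, the shift holds no measured level of it there. It was 3.94 with a floor of 10, 2.52 with a floor of 60 and 1.58 with normexp. The adjusted p of miR-3596c and let-7e rests on this pair too, since a single pair at the smallest p cannot pass over 8 pairs.

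The 6 other pairs did not pass after adjustment. The shift was -3.58 for miR-3596b and let-7d (exact permutation p = 0.0238, adjusted p = 0.0635) and 1.50 for miR-3597-5p and miR-9* (exact permutation p = 0.0397, adjusted p = 0.0794). The shift of miR-3597-5p, at the floor on all saline arrays, had no stable direction: it was -0.88 with normexp, -0.28 with cyclic loess, 3.08 with a floor of 10 and 0.50 with a floor of 60. For the others it was -3.35 for miR-3596a and let-7a, -2.35 for miR-3556a and miR-29a, -2.33 for miR-3592 and miR-382* and -0.45 for miR-3557-5p and miR-378, with adjusted p-values of 0.114 to 0.397. In all 3 let-7 pairs the shift of the member against its partner was below 0 (-3.58 to -2.88), and of these only that of miR-3596c passed. By direction alone, 8 of the 11 tested members opposite another miRNA had a fold change below 0, as did 4 of the 8 tested members with a sequence and no such partner, and no test was made of that difference.

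**Figure D4:**
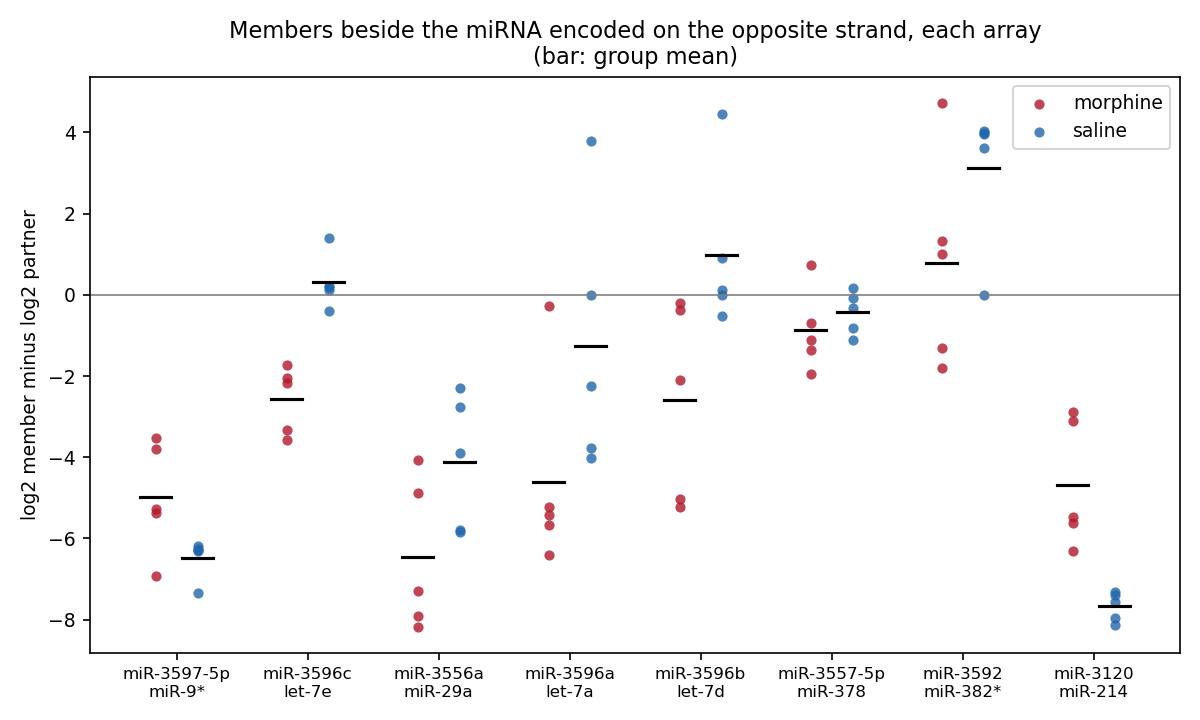
Log2 intensity of a late-numbered member minus that of the miRNA opposite it, on each array, for the 8 pairs in which both probes were tested, morphine left of saline and the group means as black bars. The groups do not overlap for miR-3596c with let-7e and for miR-3120 with miR-214, and miR-3120 is at the floor of 30 on every saline array.

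The 61 members that were not tested were dim on most arrays. Of these, 14 reached a scaled intensity of 100 on any array, and 51 were brightest on morphine replicate 4, the array with the lowest local background. The same count was not made for the other rat probes. The 3 with the highest value on any array were miR-3574, miR-299*/miR-3563-3p and miR-3542. miR-3574, opposite miR-210, was -44.6, -34.1, -47.2, 1254 and -54.7 on the morphine arrays and -40.8, -109, 13.3, -206 and -133 on the saline arrays. It was at the level on morphine replicate 4 alone, where its 4 spots ran between 191 and 4836 before scaling. miR-210, a miRNA induced by low oxygen, was -25.5, -48.8, 70.5, 11.7 and 13.9 on the morphine arrays and 251, 18.4, 309, -20.9 and 846 on the saline arrays. The probe for miR-299* and miR-3563-3p was 8.14, -15.9, -26.7, 209 and -38.5 on the morphine arrays and 215, 217, 481, -118 and -173 on the saline arrays, and cannot tell its 2 names apart. miR-3542 was 28.1, -26.3, 150.5, 383 and 188 on the morphine arrays and -6.84, -95.6, 10.1, -166 and -151 on the saline arrays, with 3 morphine arrays and no saline array at 30 or more. miR-3542 lies in the span of Ddx41, which codes for an RNA helicase, and opposite no rat miRNA in the table. The sequences of miR-3574 with its partner and of miR-3542 follow.
miR-3574: uCAGCCGCugucacacgcacag
miR-210: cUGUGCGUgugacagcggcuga
miR-3542: aAGGCUCUucuuuccuugcag
miR-3574 is the reverse complement of miR-210 over all 22 bases and lies at chr1:205755946-205755967 on the plus strand, and miR-3542 lies at chr17:9112796-9112816 on the plus strand. The 6 members opposite miRNAs of epithelium and skin or of miR-31 (miR-200a, miR-200c, miR-183, miR-203 and miR-31) included 5 at 30 on no array, and the sixth, miR-3553 opposite miR-183, reached 106 on morphine replicate 4. Of the 3 opposite the muscle miRNAs miR-1, miR-133a and miR-208a, miR-3582 was at 30 on no array and miR-3546 on 3.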

How the data were processed

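The data are miRNA intensities of the mPFC from 5 morphine-treated and 5 saline-treated rats, each on its own array. Per the paper's methods, the authors labeled the RNA with Hy3, hybridized it to miRCURY LNA arrays (v.18.0) and read the spots with GenePix software. The deposited intensity values, foreground and background-subtracted, are linear and unscaled, and all 35410 values of the deposited value table equaled the median of a probe's spots (within 1e-06). Slide and scan date, not given in the sources used here, were not examined as batches.

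Spots were averaged. As scaling factor each array had the median of the 120 rat probes at 30 or more on all 10 arrays (819 to 1281 on morphine arrays and 807 to 1101 on saline arrays), and values were brought back to intensity units by the factors' geometric mean. After a floor of 30 and log2, 301 probes at 30 or more before scaling on at least 5 arrays were tested (limma 3.58.1, R 4.3.3, two-sided, Benjamini-Hochberg), a fit also tested on simulated data. Probes below 30 on all arrays of a group got a bound. Pairs were tested by exact permutation in Python 3.11.15. The number of arrays limits the precision. Arrays with the same number did not deviate together (r = -0.40 to 0.05), and the main fit used no pairing. So few values cannot exclude that rats were paired by number.

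Named with values were members past the test or with groups that did not overlap, the 2 brightest per group, the 3 next by p, the 3 brightest not tested, and their other arms and partners. The members and lists were chosen with earlier results of these data known. Alternatives changed the scaling, background, floor, filter or test, added a replicate block, or left out an array.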

Additional observations from a re-analysis of the deposited data

Results flagged for a closer look

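In 8 of 30 groups of 5 arrays examined, the highest or lowest array stood apart from the others by more than 0.71 of the group's range, after values below 30 were set to 30. The 30 include groups with all 5 arrays at that floor, such as the saline arrays of miR-3597-5p, where no array could stand apart. Chance gives this in about 1 group of 20 for groups not chosen by their values, which is no guide here: miR-3574 and the probe of miR-299* and miR-3563-3p were named for their highest array, and in their morphine groups and the saline group of miR-3561-3p 1 array alone was above 30. On the morphine arrays, miR-3597-5p was lowest on replicate 4 (81.3) and miR-3571 on replicate 3 (4642), miR-3574 was highest on replicate 4 (1254), and so was the probe of miR-299* and miR-3563-3p (208.6). The number of members at 30 was also highest on morphine replicate 4 (38). On the saline arrays, miR-3557-5p was lowest on replicate 5 (279.6), miR-3572 highest on replicate 5 (4665) and miR-3561-3p highest on replicate 3 (74.9). Without morphine replicate 4 the log2 fold change of miR-3597-5p was 4.24, and the 4 members called lower were still called.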

How the results depend on the processing

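Under the alternatives run, 3 of the 6 calls were kept in nearly all: miR-3597-5p in all 22 that gave a value, miR-3596c in 23 of 24 and miR-3544 in 22 of 23, the exception for the last 2 being the methods' t-test. For miR-3597-5p all of these but the fit with no filter on dim probes kept its entry through the morphine arrays alone. Their number thus adds nothing to its values. The number of members past the test was 11 of 41 with the negative-control baseline, 1 of 5 with probes at 30 on all 10 arrays, 3 with the replicate block and 0 of 21 with the methods' t-test after adjustment (5 at an unadjusted p under 0.05, against 8 by limma, and 4 with no value). Over all probes, those at 30 on all 10 arrays gave 19 higher and 14 lower of 120. The replicate block gave 81 and 26 of 301, and the t-test 7 of 301 in all. The members past the test numbered 4 to 8 with 1 array left out (all probes: 75 to 101 higher and 27 to 39 lower). They numbered 2 to 5 when the probes were also filtered again (chosen after seeing the data; all probes: 38 to 87 higher and 19 to 32 lower). There, leaving out any morphine array left too few arrays at 30 for miR-3597-5p and miR-3584-5p. The replicate block changed the calls of miR-3584-5p, miR-3556a and miR-3596a. With normexp background correction the sign turned for miR-3584-5p (-0.088) and miR-3561-3p (-0.12). The number of opposite-strand pairs past the test was 2, and 0 with quantile normalization, with normexp and with no background subtraction, and 0 to 5 with 1 array left out, where the highest was without morphine replicate 4 and every saline array left out gave 0. A single pair at the smallest p cannot pass alone after adjustment over 8 pairs. The pair of miR-3596c and let-7e was at that p (0.00794) in all of these settings, with a shift of -2.81 with quantile normalization, -2.71 with normexp, -2.75 with no background subtraction and -3.09 to -2.60 with 1 array left out, against -2.88. The median number of members detected was 36 on morphine arrays and 36 on saline arrays above the negative controls. Dim probes limit all of this: most members lay at or below the local background.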

Other observations

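Of the 11 members past the test above the negative controls, 4 were too dim for the test on background-subtracted values, and were chosen here after their values were seen. miR-3561-5p was higher in morphine-treated rats (log2 fold change 1.45 ± 0.35 SE, n = 5 each, limma adjusted p = 0.00398), as was miR-3561-3p before, though without passing. miR-3561-5p stood 63.75 to 157.5 above the negative controls on the morphine arrays and -22.25 to -2 on the saline arrays, with no overlap. It entered this test through the morphine arrays alone, so that a difference was built into its entry and its p adds nothing to these values. miR-3085 was lower (-1.82 ± 0.40, limma adjusted p = 0.00239), at 3 to 30.25 on the morphine arrays and 50.75 to 159 on the saline arrays. miR-3558-3p was lower too (-1.55 ± 0.36, limma adjusted p = 0.00326), at -1.5 to 23 on the morphine arrays and 42.25 to 102 on the saline arrays. This probe entered the test through the saline arrays alone, and its p likewise adds nothing to its values. miR-3549, which lies opposite miR-193*, was lower (-1.58 ± 0.40, limma adjusted p = 0.00581), at 26.25 to 82 on the morphine arrays and 68 to 197 on the saline arrays, which overlapped. On background-subtracted values none of the 4 was at 30 on 5 arrays.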
